A study of Mus musculus with 12 samples.

Results

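The respiratory chain genes of mouse airway organoids were followed at the level of mRNA, with the genes of mitochondrial DNA set against those of the nucleus. Members were the rows of the deposited table whose symbol named a subunit of complex I, III, IV or V (mt-Nd, mt-Cytb, mt-Co, mt-Atp, Nduf, Uqcr, Cox and Atp5 symbols), without names ending in -ps, and they were further selected on their level, since 6 or more of the 12 libraries had to reach 10 normalized counts. Of 104 rows with such a name, 85 were members, out of 13792 genes that passed the same minimum and 55401 genes listed. Of these, 11 were encoded by mitochondrial DNA and 74 by the nucleus, the latter in complex I (35), complex III (8), complex IV (14, with Ndufa4 and Ndufa4l2 counted there) and complex V (17). Just inside the minimum stood Cox7a1, with 12.7 to 22.0 normalized counts in 12 libraries, and just outside it Cox6c2, which had a mean of 5.71 and reached the minimum in 2 libraries. The mitochondrial genes mt-Atp8 (mean 2.99 normalized counts) and mt-Nd4l (mean 1.30) did not reach it and were not tested. Several subunits whose symbols the name rule does not cover, such as Cox4i1 and Cyc1, are described separately.

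Complexes I, III and IV pass electrons from NADH to oxygen and pump protons across the inner mitochondrial membrane, and complex V, the ATP synthase, uses that gradient to make ATP. All 4 are built from subunits of both genomes, so that a few core subunits transcribed inside the organelle from mitochondrial DNA have to meet a larger number of subunits that are transcribed in the nucleus and imported. Mitochondrial genes are read as long polycistronic transcripts that are cut into mRNAs, tRNAs and rRNAs, whereas each nuclear subunit gene has its own promoter, often with sites for the nuclear respiratory factors. In airway epithelium this machinery supplies ATP to basal, secretory and ciliated cells alike.

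The organoids were grown from primary airway epithelial cells of adult C57BL/6J mice, and in all of them a lentiviral vector expressed a Histone2A-mCherry fusion from the p63 promoter, which is active in basal cells. In the ablation group a femtosecond laser removed 10 neighbouring cells from each of the 45 organoids of a dish, and no cell was removed in the control group. Dishes were changed to Fluorobrite DMEM without supplements and harvested 4.5 h after the laser, so that each library pools 45 organoids, ablated and intact cells together. The 6 ablation and 6 control libraries carry the replicate numbers 1, 3, 4, 5, 6 and 7, and both dishes of a number shared passage, culture day and date. Pairs 1 and 3 were of passage P2+14, pairs 4 and 5 of P2+15, and pairs 6 and 7 of P2+16. Pairs 1, 4 and 5 were early in culture (day 14 or 15) and pairs 3, 6 and 7 late (day 18 to 20). The library numbers in the labels fall into 2 runs, called library sets here, with pairs 1, 3 and 5 in set 1 and pairs 4, 6 and 7 in set 2. P2+14 was therefore seen only in set 1 and P2+16 only in set 2, and P2+15 in both. The titles of the controls of pairs 4, 6 and 7 contain the word ablation beside their number, while their treatment label reads control, and they were used as controls. Nothing in the labels states that dishes came from separate animals. P-values therefore measure the spread between these dishes, or between their pairs where pair means or pair differences were tested.

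Each library held 27297950 to 28504390 normalized counts, and recovered whole reads were accepted for 9 libraries, at 23631212 to 29775699 reads each. The basal cell keratin Krt5 stood at 229016 to 340094 normalized counts per library, which fits the label of airway epithelial organoids, while all 6 fibroblast markers together summed to 17.8 to 48.3, all 3 endothelial markers to 2.96 to 14.3 and all 4 immune markers to 133 to 222. Of the fibroblast markers 1 of 6 and of the immune markers 3 of 4 passed the count minimum. Among those that did not, Col1a2 and Cd3e stayed under 1 normalized count in every library. Among other epithelial lists, the markers of club cells summed to 75196 to 179394 and those of alveolar type 1 cells to 76125 to 89246. Sums were 975 to 1284 for alveolar type 2, 148 to 307 for tuft and 145 to 240 for multiciliated cells. In these lists 1 of 5, 2 of 3 and 3 of 8 markers passed the count minimum. They were 54.2 to 134 for goblet cells, 38.5 to 70.5 for ionocytes and 8.99 to 35.7 for neuroendocrine cells, with 1 of 4 markers past the minimum in each list.

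The deposited levels of the mitochondrial mRNAs fell into separate classes, which matters for what can be read from each of them. Mouse chromosome 1 carries annotated near-identical copies of mitochondrial genes (positions 24611535 to 24616197, GRCm38), and reads that fit a gene and its copy equally well cannot be assigned by sequence. For each mitochondrial transcript, every stretch of 75 bases was taken, which is the length of 1 sequenced read. It was looked up on both strands in the transcripts of all other genes of the GENCODE M21 annotation. Genes that overlap the transcript's own gene in position were left out of the search. Stretches from 3 genes show what was found. Capitals mark bases inside a 75-base window that also occurs, letter for letter, in a transcript of another gene on either strand. Lower case marks bases in no such window. All 3 are on the forward strand of the mitochondrial chromosome in GRCm38.
mt-Co2 (chrM:7018-7092, coding sequence of cytochrome c oxidase subunit 2): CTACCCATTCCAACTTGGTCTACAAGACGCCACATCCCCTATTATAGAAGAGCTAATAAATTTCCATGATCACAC
mt-Nd4 (chrM:10993-11092, across the end of its copied part): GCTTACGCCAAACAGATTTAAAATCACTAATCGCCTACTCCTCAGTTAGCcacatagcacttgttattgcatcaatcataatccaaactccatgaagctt
mt-Nd1 (chrM:2751-2825, start of the gene): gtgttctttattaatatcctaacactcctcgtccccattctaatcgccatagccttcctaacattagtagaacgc

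The shared part covered 99.5% of the windows of mt-Co2 (copy Gm28661), 99.5% of mt-Atp6 (Gm10925), 99.9% of mt-Co3 (Gm28437) and 97.8% of mt-Nd3 (Gm28438). The means of these 4 genes over 12 libraries were 39.5 to 142 normalized counts per kb of merged exons. In mt-Nd4 the share was 61.5% (Gm28439) and in mt-Co1 39.8% (Gm29216 and others), and their levels per kb were 14865 and 88999. It was 5.71% or less in mt-Nd2, mt-Nd5, mt-Nd1, mt-Cytb and mt-Nd6, whose levels per kb ran from 2548 (mt-Nd6) to 76569 (mt-Cytb). Subunits of one enzyme thus differed widely, since mt-Co1 stood at 88999 normalized counts per kb and mt-Co2 and mt-Co3, which form the catalytic core of complex IV with it, at 46.8 and 42.4. The untested mt-Nd4l had a share of 98.7% and a level per kb of 4.37. mt-Atp8 shared no window with an annotated transcript and had 14.7 counts per kb. Only annotated transcripts were searched, so a copy of it outside them would not have been found. mt-Atp8 (positions 7766 to 7969) overlaps mt-Atp6 (7927 to 8607), and mt-Nd5 and mt-Nd6 overlap on opposite strands. The copies themselves had low counts too, with means of 44.2 for Gm28661, 73.0 for Gm10925, 54.7 for Gm28437 and 4.84 for Gm28438. Levels of mt-Co2, mt-Co3, mt-Atp6 and mt-Nd3 are therefore uncertain. Those of mt-Nd4 and mt-Co1 have the same limit over their shared parts of 61.5% and 39.8%. The part that read assignment had in any of these levels was not tested. Among the nuclear members, 9 shared more than 10% of their windows with another gene, up to 35.8% in Atp5g2. Per kb, the nuclear members ran from 30.3 (Cox7a1) to 13664 (Atp5b, the catalytic beta subunit of ATP synthase). The lowest of the 6 mitochondrial members above 10000 counts was mt-Nd4. Its deposited level stood close to that of the highest nuclear member, with the limit given above for its shared part.

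**Figure D1:**
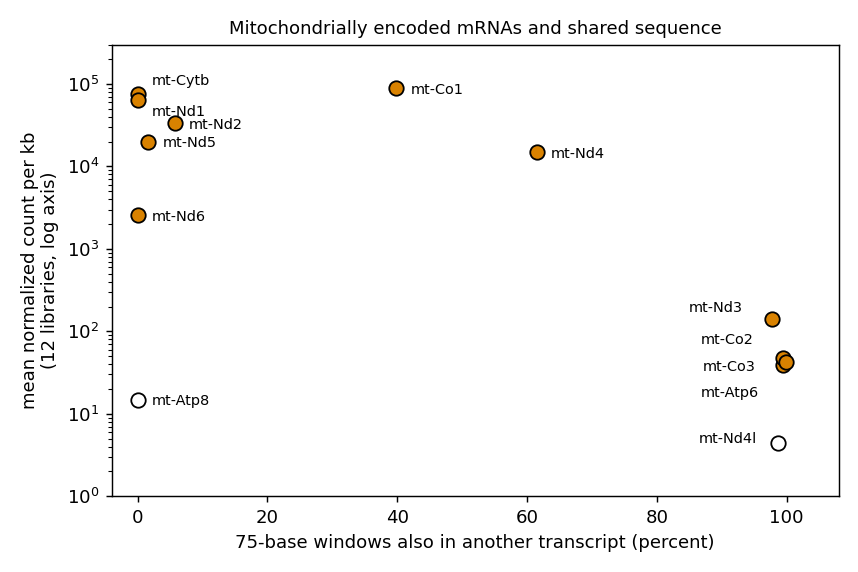
Mean normalized count per kb over 12 libraries (vertical, log axis) against the percent of 75-base windows found in a transcript of another gene (horizontal) for the 13 protein-coding mitochondrial genes. Filled points are members and open points the genes under the count minimum. The 5 genes with a share of 97.8% or more stand at 142 per kb or less, and mt-Co1 with 39.8% stands highest.

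Along passage, most mitochondrial members had a slope over 0 and most nuclear members one under 0. No member passed the test over all genes (limma on log2(normalized count + 1) of the pair means, with culture day in the model and Benjamini-Hochberg adjustment over 13792 genes, threshold 0.05), and 0.00725% of all genes did, which is 1 gene. At an unadjusted p under 0.05, 7 of 11 mitochondrial members were higher with passage, where 8.3% of all genes were, and none was lower. Of the 74 nuclear members 17 were lower, where 6.99% of all genes were, and none was higher. The median slope was 0.20 log2 units per passage over the mitochondrial members and -0.066 over the nuclear members, against -0.0023 over all genes tested.

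In what follows, the values of a passage are given for pair after pair, the ablation dish before the control dish. mt-Nd4, a core subunit of the proton-pumping arm of complex I, had 18856, 18355, 15874 and 17598 normalized counts at P2+14. The same gene had 19542, 22867, 19732 and 20447 at P2+15 and 23451, 23550, 22070 and 23462 at P2+16. All P2+16 values thus lay above all P2+14 values, with a slope of 0.22 ± 0.041 (SE, 6 pairs) log2 units per passage and an adjusted p of 0.106, the lowest among the 85 members.

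mt-Cytb encodes the only mitochondrial subunit of complex III. It had 79688, 78326, 71915 and 76259 normalized counts at P2+14 and 83959, 94902, 86246 and 87569 at P2+15. At P2+16 it had 99460, 98436, 95363 and 99013, so that the 3 passages did not overlap, and its slope was 0.19 ± 0.039 (adjusted p = 0.124 by limma). mt-Co1, the catalytic subunit of complex IV and the most abundant member, had 129585, 124031, 113438 and 122553 at P2+14 and 157999, 159779, 147547 and 155001 at P2+16. Its P2+15 values, from 127300 to 147418, overlapped those of P2+14 by 1 library (slope 0.18 ± 0.042, adjusted p = 0.163 by limma).

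The other abundant mitochondrial mRNAs, all for complex I subunits, behaved alike. mt-Nd1 ran from 50200 to 56073 at P2+14 and from 67589 to 72930 at P2+16 (slope 0.17), mt-Nd2 from 27711 to 32374 and from 38590 to 41548 (slope 0.20), and mt-Nd5 from 27605 to 34313 and from 37989 to 42562 (slope 0.20). The ratio of the P2+16 mean to the P2+14 mean was between 1.27 and 1.33 in these 6 mRNAs. mt-Nd6, the only one encoded on the other strand, differed from them, with 1247 to 1441 counts at P2+14 and 1264 to 1605 at P2+16 (slope 0.018 ± 0.072), and its groups overlapped. Among the mRNAs with near-complete copies, mt-Nd3 had 29.97 to 48.3 counts at P2+14 and 56.3 to 67.8 at P2+16 (slope 0.42 ± 0.11, adjusted p = 0.169 by limma). The slopes of mt-Co2 (0.26), mt-Atp6 (0.22) and mt-Co3 (-0.13) rested on 13.1 to 66.3 counts per library and had standard errors of 0.14 to 0.16. The 12S and 16S rRNAs of mitochondria, which are cut from the same kind of precursor, differed in the sign of their slopes. mt-Rnr1 had means of 4165 at P2+14 and 4838 at P2+16 (slope 0.11, unadjusted p = 0.0234 and adjusted p = 0.263 by limma) and mt-Rnr2 of 51720 and 53590 (slope -0.040, adjusted p = 0.749). Libraries were made from poly(A) RNA, so that rRNA counts depend on what the selection let through.

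**Figure D2:**
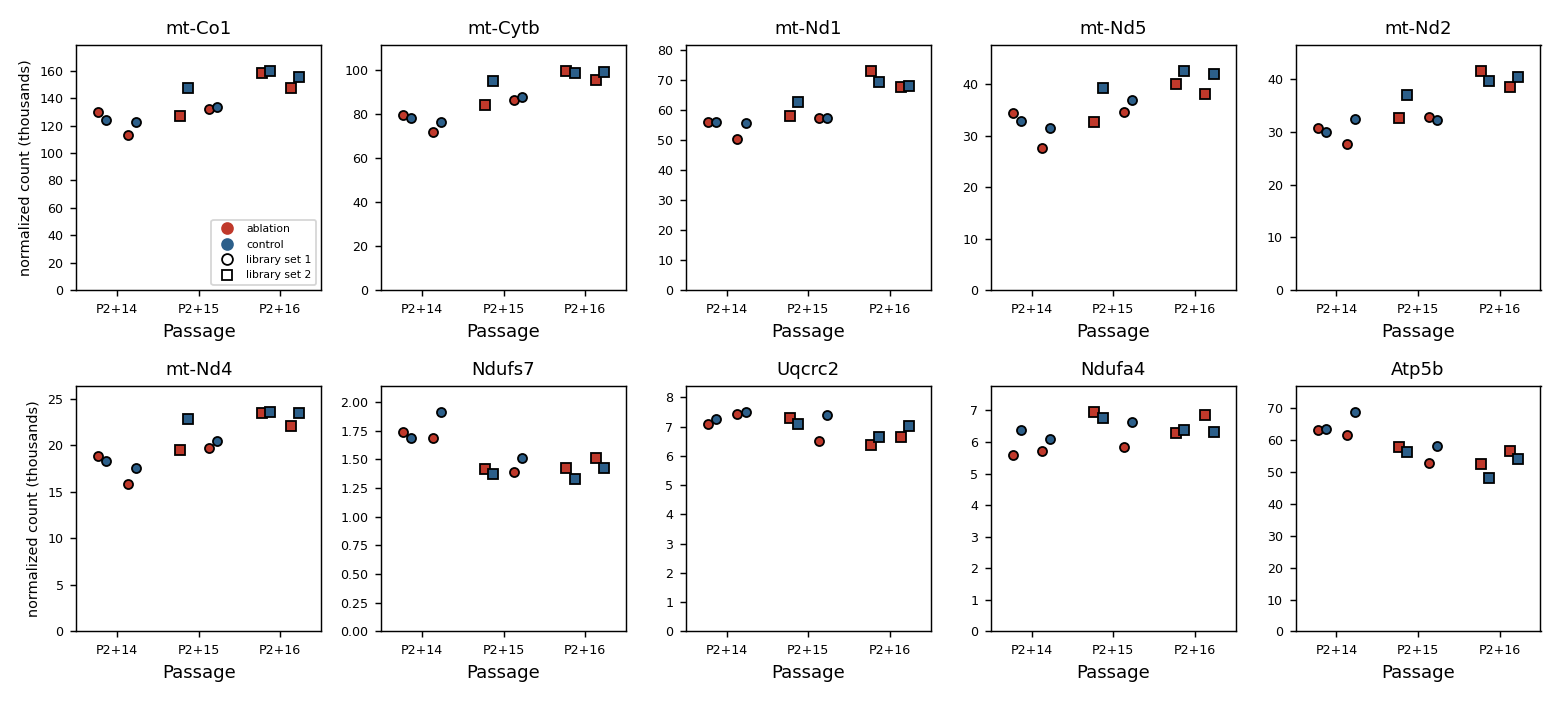
Normalized counts, divided by 1000 (vertical, from 0), in each of 12 libraries by passage (horizontal) for the 6 mitochondrially encoded members above 10000 counts for Ndufs7, the nuclear complex I member with the most negative slope, and for the most abundant nuclear member of complexes III (Uqcrc2), IV (Ndufa4) and V (Atp5b). Red points are ablation dishes, blue points control dishes, circles library set 1 and squares library set 2. All 6 mitochondrial mRNAs have every P2+16 library above every P2+14 library, and Ndufs7, Uqcrc2 and Atp5b have the reverse.

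The median slope of the nuclear members was under 0 in each of the 4 complexes, though none of them passed the adjusted threshold. Every P2+16 library lay below every P2+14 library in 40 of 74 nuclear members, where this held for 6.93% of all genes, and the reverse held in none. Among the mitochondrial members every P2+16 library lay above every P2+14 library in 7 of 11, against 7.72% of all genes. The median slope was -0.077 in complex I, -0.055 in complex III, -0.059 in complex IV and -0.076 in complex V, and 32 of 35, 6 of 8, 11 of 14 and 16 of 17 members had a slope under 0, where 50.9% of all genes had one. Among the mitochondrial members 10 of 11 had a slope over 0, against 49.1% of all genes.

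Atp5b had 63310, 63646, 61759 and 68839 normalized counts at P2+14 and 52708, 48040, 56732 and 54119 at P2+16. With P2+15 in between or overlapping (52823 to 58267), its slope was -0.16 ± 0.043 (adjusted p = 0.179 by limma). Atp5d, the delta subunit of the soluble F1 part, had the most negative slope in complex V at -0.20 ± 0.053, from 7060, 7775, 6348 and 8239 at P2+14 to 5848, 5207, 6122 and 6210 at P2+16. Ndufs7, an iron-sulfur subunit next to the quinone site of complex I, had 1737, 1687, 1692 and 1913 at P2+14 and 1422, 1332, 1509 and 1424 at P2+16 (slope -0.19 ± 0.045, adjusted p = 0.162 by limma). In complex III, Uqcr11, a small membrane subunit, had 2876, 2696, 2471 and 2793 at P2+14 and 2211, 1945, 2176 and 2152 at P2+16 (slope -0.20 ± 0.050, adjusted p = 0.168 by limma). In each of these 4 genes all P2+16 values lay below all P2+14 values.

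Uqcrc2, a core subunit and the most abundant nuclear member of complex III, had a slope of -0.070, close to the median of the nuclear members. Of the 74 nuclear members 9 had a slope over 0, among them Ndufa4, the most abundant of complex IV (0.077 ± 0.044). The highest slopes of complexes I, III, IV and V were 0.034 in Ndufb4, 0.036 in Uqcrb, 0.10 in Cox7a1 and 0.016 in Atp5l, with adjusted p of 0.740 or more by limma. With library set in place of culture day, which compares passages within a set, the slopes of Ndufa4, Ndufb4, Uqcrb and Atp5l were -0.0099, -0.031, -0.054 and -0.053, and that of mt-Co3 was 0.14.

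To show what promoters of the nuclear members share, they were looked up for a short sequence, the core GCGCATGC of sites for nuclear respiratory factor 1. The promoter table from RefSeq (GRCm38.p6, 250 bases before to 50 after each start) held 62 of the 74 nuclear members, and the motif was found on either strand in 9 of them (14.5%), against 824 of 27025 genes in the table (3.05%) and 595 of the 10132 matched genes that passed the count minimum (5.87%). The median slope per passage was -0.092 in the 9 members with the motif, 8 of them under 0, and -0.055 in the 53 without it, 46 of them under 0, which is a description with no test. Read on both strands, the motif can overlap itself by several letters, and each promoter was counted once. It was found in Uqcr11 and Uqcrc1 of complex III, and also in Atp5l, whose slope was 0.016. A match is a description of letters and shows no binding. Stretches around the match in 3 genes of different complexes are printed to show it, in the direction of transcription, with the motif or its reverse complement in capitals.
Atp5k (complex V, chr5:108434412-108434479, minus strand): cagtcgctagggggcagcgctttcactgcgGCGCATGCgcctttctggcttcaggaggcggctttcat
Cox6a1 (complex IV, chr5:115349083-115349150, minus strand): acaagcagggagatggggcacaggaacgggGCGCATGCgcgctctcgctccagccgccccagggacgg
Ndufa6 (complex I, chr15:82354337-82354404, minus strand): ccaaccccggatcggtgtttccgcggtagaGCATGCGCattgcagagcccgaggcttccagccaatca

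Summed over members, mitochondrial mRNAs took 1.09% to 1.27% of all normalized counts at P2+14, 1.28% to 1.45% at P2+15 and 1.47% to 1.59% at P2+16. Nuclear members took 1.01% to 1.03%, 0.912% to 1.00% and 0.900% to 0.939%. The ratio of both sums was 1.23, 1.19, 1.08 and 1.15 at P2+14, 1.28, 1.52, 1.44 and 1.33 at P2+15 and 1.76, 1.73, 1.57 and 1.66 at P2+16, so that no value of one passage overlapped with another passage. On the log2 scale, the mean slope of the mitochondrial members exceeded that of the nuclear members by 0.25 per passage, where the SD between pairs around the model was 0.091. As members were chosen with results known, no p is given for this difference.

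**Figure D3:**
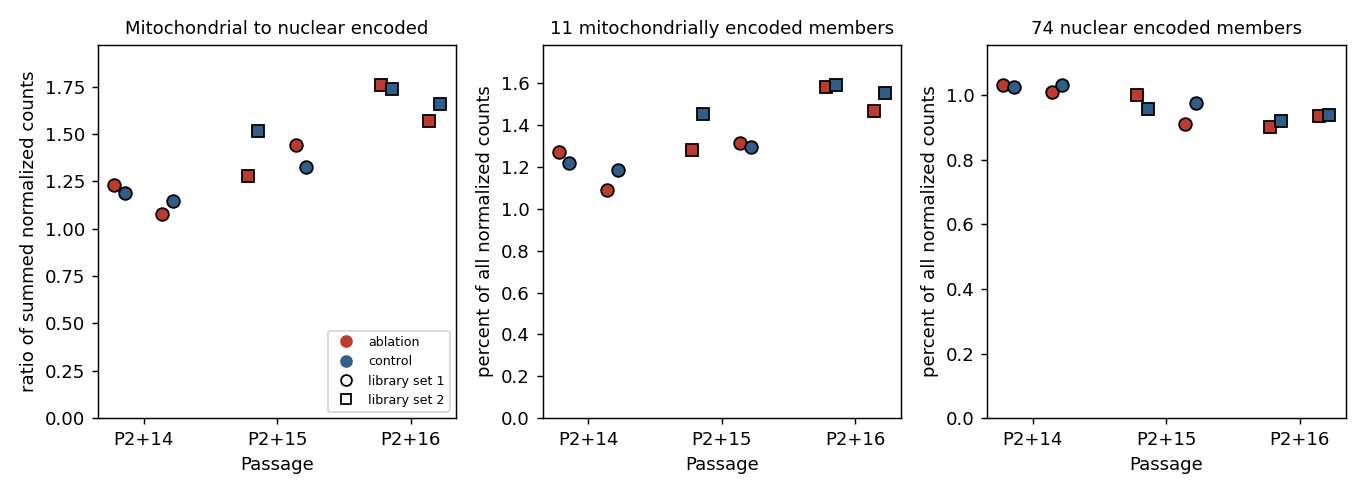
Ratio of the summed normalized counts of 11 mitochondrially to those of 74 nuclear encoded members (left), and the percent of all normalized counts that each group took (middle, right), by passage, 1 point per library. Colours and shapes are as in the plot of single members. The ratio runs from 1.08 to 1.23 at P2+14 and from 1.57 to 1.76 at P2+16.

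Passage and library set cannot be told apart between P2+14 and P2+16, and values within a set are therefore given too. Within set 2, however, P2+15 was early and P2+16 late, so that passage and culture day cannot be told apart there, nor does the model with library set in place of culture day separate them. In set 1 the ratio was 1.08 to 1.23 at P2+14 and 1.44 and 1.33 in the 2 dishes of P2+15. In set 2 it was 1.28 and 1.52 at P2+15 and 1.57 to 1.76 at P2+16. At P2+15, which both sets contain, the values of set 1 lay between those of set 2. In set 1 every P2+15 library lay above every P2+14 library in 5 of 11 mitochondrial members (10.9% of all genes) and below in 21 of 74 nuclear members (9.86%). In set 2 every P2+16 library lay above every P2+15 library in 6 of 11 mitochondrial members (8.83% of all genes) and below in 31 of 74 nuclear members (9.01%). Within both sets, every library of the later passage lay above every library of the earlier in mt-Nd1, mt-Cytb and mt-Co1, which is 3 of 11 mitochondrial members against 0.776% of all genes. The reverse held in 8 of 74 nuclear members against 0.653% of all genes, namely Ndufb5, Ndufs3, Ndufv2, Cox6c, Atp5a1, Atp5c1, Atp5h and Atp5j. These 11 names were chosen after their values were seen. With library set in the model, the difference between the mean slopes was 0.27 per passage.

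Pair 3, the only late pair of P2+14, had a strong hold on these slopes. Without it, the difference between mitochondrial and nuclear slopes was 0.11 per passage. Without both pair 3 and the nuclear member Ndufa4l2 it was 0.052, which is under the SD between pairs of 0.091. That SD came from the model of all 6 pairs and all members, and is no standard error of a slope. Without Ndufa4l2 alone the difference was 0.24. Without pair 3 the slopes of mt-Nd6, mt-Co2, mt-Co3 and mt-Atp6 were -0.23, -0.12, -0.62 and -0.071. Those of the 6 mitochondrial mRNAs above 10000 counts remained over 0 without pair 3, from 0.068 in mt-Nd1 to 0.16 in mt-Cytb. Past the adjusted threshold without pair 3 were 2 members, Uqcr11 and Ndufa4l2, both lower. Without pair 1 they were 6, namely mt-Nd1, mt-Nd2, mt-Nd4, mt-Nd5 and mt-Cytb higher and Atp5g1 lower. The share of all genes called in these fits is not given, so the counts are no result about the members.

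Markers of basal cells were mixed along the passages. The sum over 8 basal markers, mostly Krt5 and Krt14, was 578300 to 630196 normalized counts at P2+14 and 481793 to 554445 at P2+16, and Krt15 had means of 11459 ± 3175 (SD, n = 4) and 4191 ± 1217 (adjusted p = 0.0987 by limma). Of the 8 markers, 5 had a slope under 0 and 3 one over 0, and none passed the adjusted threshold. The slope was -0.22 in Krt5, -0.055 in Krt14, -0.15 in Trp63 and 0.094 in Itga6. The sum over 8 markers of club cells overlapped between the same passages (75196 to 179394 and 100204 to 138778). The part that cell composition had in the slopes was not tested, and in bulk RNA fewer cells of a type and less RNA per cell cannot be told apart.

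Ablation of 10 cells per organoid, the question the study was designed for, gave no call among the members. With library set in the model, 0 of 85 members passed the adjusted threshold, and 0% of all genes did. At an unadjusted p under 0.05 the count was 1 of 85 members against 7.85% of all genes. It was 1 lower, where 3.7% of all genes were, and 0 higher, where 4.15% were. With the pair as a block in place of the library set, the count over all genes was 150 (1.09%), still with none of the members. The study itself reported genes past an adjusted p of 0.05 in this comparison with DESeq2 and a batch factor, a test not repeated here. At an unadjusted p under 0.05 the block gave 6 members, against 17.6% of all genes, with mt-Nd5 and 5 nuclear members lower (8.86% of all genes) and none higher (8.78%). The median log2 fold change, ablation over control, was -0.061 over mitochondrial and -0.020 over nuclear members, against -0.0036 over all genes, and 9 of 11 and 51 of 74 had a value under 0, where 51.5% of all genes had one.

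mt-Nd5 had the most negative value among the 6 abundant mitochondrial mRNAs. It had 27605 (lowest), 34497 (median) and 40086 (highest) normalized counts after ablation and 31545, 38138 and 42562 in the control, which is a log2 fold change of -0.12 with a 95% interval of -0.28 to 0.035 (adjusted p = 0.710 by limma). It was lower after ablation in 5 of 6 pairs, and the groups overlapped widely. With the pair as a block in place of the library set, its 95% interval was -0.22 to -0.026. In that fit its unadjusted p was 0.0166 and its adjusted p 0.183 by limma. With library set in the model, the 95% intervals of the 6 abundant mRNAs reached at most 0.16 to either side of their estimate. Some of them still held falls beyond 0.16, down to -0.28 in mt-Nd5. The most negative values in the nuclear complexes were -0.17 in Ndufb2 (complex I), -0.070 in Uqcrc1 (complex III), -1.34 in Ndufa4l2 (complex IV) and -0.13 in Atp5d (complex V), with adjusted p from 0.569 to 0.824 by limma. Ndufb2, an accessory subunit, had 654, 718 and 818 (lowest, median, highest) after ablation and 748, 840 and 858 in the control, and was the 1 member at an unadjusted p under 0.05. Cox8a, a small subunit of complex IV named here after its values were seen, was lower after ablation in all 6 pairs, as were 4.63% of all genes (log2 fold change -0.091, adjusted p = 0.639 by limma). No member was higher in all 6 pairs, where 5.17% of all genes were. The mean log2 fold change of the mitochondrial members minus that of the nuclear members was -0.0089, with an SD between pairs of 0.15, and -0.027 without Ndufa4l2.

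**Figure D4:**
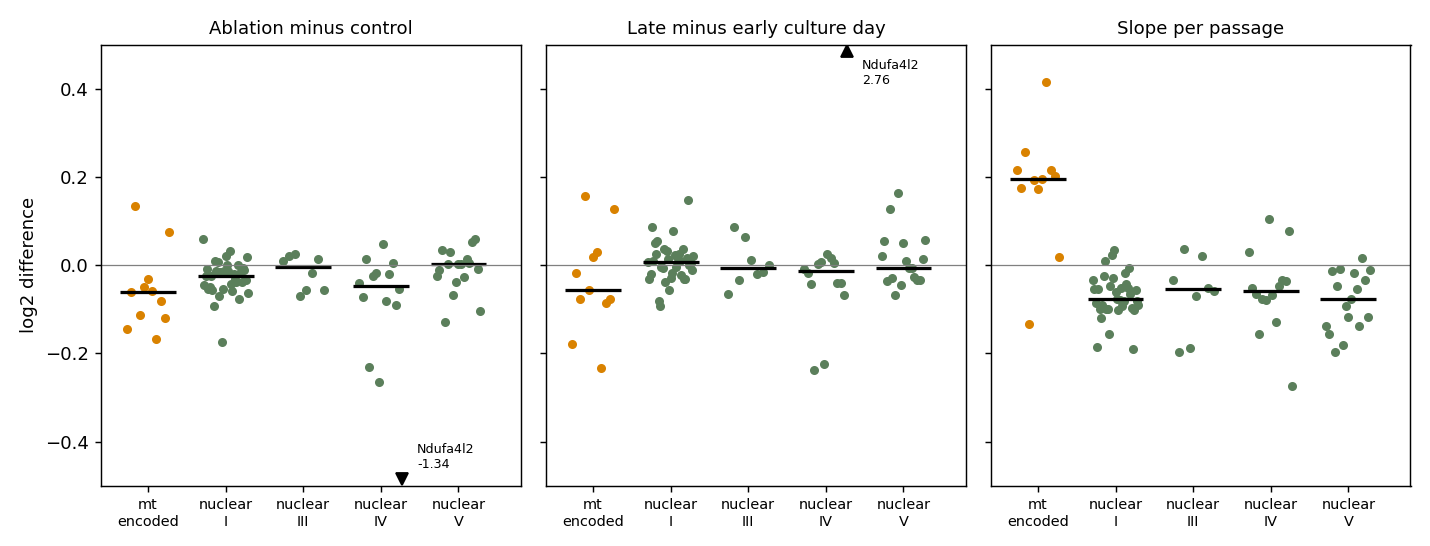
Log2 difference of each of 85 members (points) between ablation and control (left), between late and early culture days (middle) and per passage (right), in the mitochondrially encoded members (orange) and the nuclear members of complexes I, III, IV and V (green). Black bars are medians, and triangles mark Ndufa4l2 where its value of -1.34 or 2.76 lies outside the axis. In the slopes per passage the medians are 0.20 for mitochondrial and -0.077 to -0.055 for nuclear members.

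Culture day, day 18 to 20 against day 14 or 15 with passage in the model, gave no call either. Of 85 members 0 passed the adjusted threshold (0% of all genes), and 0 had an unadjusted p under 0.05, where 8.39% of all genes did (3.93% higher and 4.46% lower). No member had every late library above every early library, or below, where 0.421% and 0.5% of all genes had. The median was -0.057 over mitochondrial and 0.00043 over nuclear members, against 0.0031 over all genes, and the mean of the mitochondrial members minus that of the nuclear members was -0.071 with an SD between pairs of 0.091. It was -0.034 without Ndufa4l2. Pair 3 decided the sign, since this difference was 0.13 without it, and 0.25 without both. It was 0.039 in the control dishes and -0.18 in the ablation dishes. The highest values in complexes I, III and V were 0.15 in Ndufs7, 0.086 in Uqcr11 and 0.16 in Atp5g1, one of the genes for the rotating c subunit. Atp5g1 had 2249 to 2664 normalized counts in the early and 2149 to 3144 in the late libraries, with the highest values in pair 3 (3032 and 3144), and without this pair its difference was -0.17. Whether the response to ablation differed between late and early pairs was tested on the 6 pair differences. None of the members was called in this test (0% of all genes, and 5.26% at an unadjusted p under 0.05, 2.7% higher and 2.55% lower, with none of the members). As 3 pairs stood against 3, it could resolve only large differences.

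The most variable member was Ndufa4l2, a paralog of Ndufa4 known as a target of the hypoxia response. It had 320, 58.9, 2.97, 8.45, 235 and 73.98 normalized counts after ablation in pairs 1, 3, 4, 5, 6 and 7 and 198, 137, 105, 2.87, 372 and 799 in the matching controls. The lowest values were those of pair 5 and of ablation dish 4, and the highest that of control dish 7, so that dishes of one pair could stand far apart, as in pairs 4 and 7. Its log2 difference was -1.34 ± 1.28 after ablation (adjusted p = 0.824 by limma) and 2.76 ± 1.46 between late and early days (adjusted p = 0.654 by limma). Both day and passage values of this gene depended on pair 3. Without it the model gave a day difference of 9.10 (adjusted p = 0.046 by limma) and a slope per passage of -4.50, where the slope was -0.27 with all pairs. These values are extrapolations, as late dishes were then of P2+16 only and early dishes of P2+14 and P2+15. The counts of early pair 1 overlapped those of the late pairs, and 9.10 log2 units exceed the span from 2.87 to 799 counts. The isoforms of heart and skeletal muscle were low. Cox6a2 had 65.2 to 143 and Cox7a1 12.7 to 22.0 normalized counts. Both were lower after ablation in 5 of 6 pairs, with log2 fold changes of -0.23 and -0.27 (adjusted p = 0.751 and 0.738 by limma), and neither was called in any comparison. Cox6b2 and Cox8c, known from testis, had means of 0.346 and 0.0782.

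**Figure D5:**
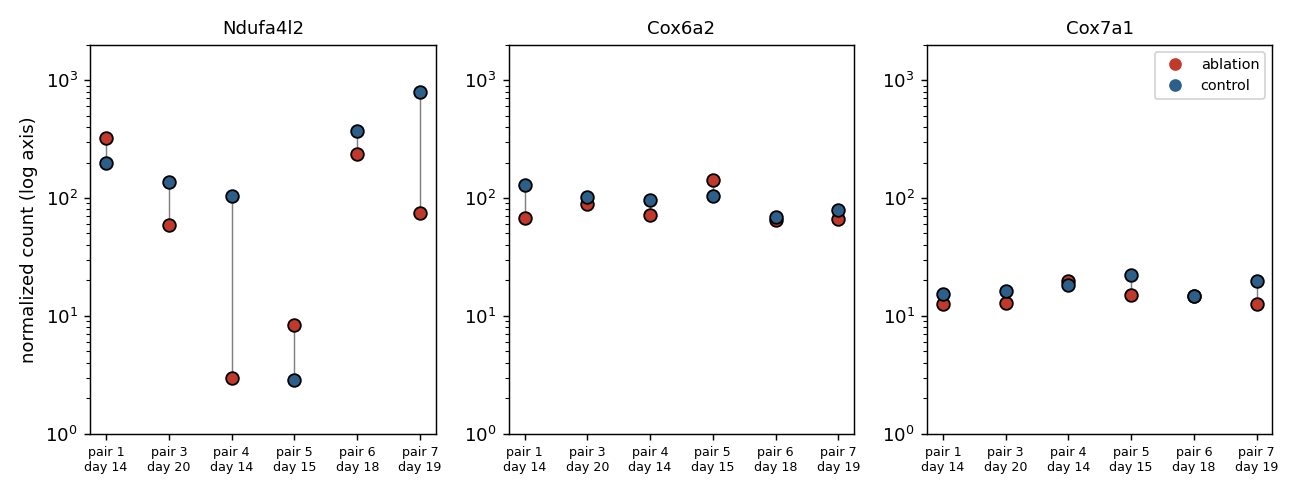
Normalized counts (vertical, log axis) of Ndufa4l2, Cox6a2 and Cox7a1 in the ablation (red) and control (blue) dish of each pair (horizontal, with culture day). Lines join the dishes of a pair. Ndufa4l2 runs from 2.87 to 799, and the other genes stay between 12.7 and 143.

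Of 5 tested subunits that the name rule does not cover, 3 had a slope under 0 (median -0.030). Cox4i1, a nuclear subunit of complex IV, had means of 11342 at P2+14 and 9910 at P2+16 (slope -0.093). Cyc1, the haem subunit of complex III, had a slope of -0.057 and Cycs, cytochrome c itself, one of -0.030. Ndufab1 and Ndufb1-ps, both of complex I, had slopes of 0.033 and 0.029. Complex II, which feeds electrons from succinate and is encoded in the nucleus alone, had slopes of -0.021 in Sdha, -0.015 in Sdhb, -0.025 in Sdhc and -0.044 in Sdhd, with adjusted p of 0.662 or more by limma.

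The wider mitochondrial programme was read from fixed lists, with none of their genes past the adjusted threshold in any of the 3 comparisons. Of 79 tested genes for proteins of the mitochondrial ribosome, 73 had a slope under 0 with passage, as did 50.9% of all genes (median -0.074), and 11 of them had an unadjusted p under 0.05, as did 6.99% of all genes. At late culture days 72 had a value over 0, against 51% of all genes (median 0.066). Of 28 genes for copying, transcribing and processing mitochondrial DNA and RNA, 23 had a slope under 0 (median -0.055) and 26 a value over 0 at late days (median 0.10), to be read against the same shares. In the latter list Tfam, which packages mitochondrial DNA and starts its transcription, had means of 2935 ± 380 (SD, n = 4) at P2+14 and 2521 ± 125 at P2+16, with a slope of -0.16 (adjusted p = 0.169 by limma). Its counts were highest in both dishes of pair 3, at 3043 and 3414. Of 18 genes of the citric acid cycle, 16 had a slope under 0 (median -0.046), and citrate synthase, Cs, had means of 12265 ± 936 and 9649 ± 633 (slope -0.20, adjusted p = 0.156 by limma). Assembly factors were mixed, with 30 of 45 slopes under 0 (median -0.019). Of 10 nuclear regulators, 7 had a slope under 0, and Ppargc1b, a coactivator of mitochondrial biogenesis, had means of 86.7 ± 20.2 at P2+14 and 46.0 ± 10.3 at P2+16 (slope -0.53, adjusted p = 0.221 by limma). Tfam, Cs and Ppargc1b were named after their values were seen.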

How the data were processed

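Poly(A) RNA of 12 organoid dishes was sequenced as stranded paired reads of 75 bases. The authors processed the reads with an nf-core pipeline, the GENCODE annotation of GRCm38.p6 and DESeq2, in a model with condition and batch; aligner and counter are not given in the sources used here. The deposited signal values used here are counts that the authors divided by DESeq2 size factors, and other deposited columns give merged exon length and position. Columns of the authors' own comparison (fold changes, errors, statistics and p-values) were not used. The batch is not explained in the sources, and the library set was taken in its place.

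The 13792 genes that reached 10 normalized counts in 6 or more libraries were tested on log2(value + 1), with limma 3.58.1 in R 4.3.3 (trended, robust eBayes, Benjamini-Hochberg adjustment over all of them, threshold 0.05). Treatment was tested over 12 libraries with library set as covariate, and culture day and passage over 6 pair means in 1 model with 3 residual degrees of freedom. Scripts were tested on simulated data. Division by the normalized value of 1 read gave whole reads (within 0.1) in all 12 libraries. Ablation dishes 3 and 4 and control dish 4 were left out, as this value (0.999, 0.990 and 1.01) lay too close to 1. On the 9 accepted libraries edgeR 4.0.16 was run as an alternative. Same-numbered dishes shared passage, day and date by their labels, and their deviations from group means correlated at 0.205 to 0.618, against -0.135 to -0.025 on average with other numbers.

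Members and gene lists were chosen with earlier results of these data known. Named were all mitochondrial members, the most abundant nuclear member of each complex, those with the largest rise or fall (with passage; the largest fall after ablation; the largest rise at late days), and members of short lists with any count. Of the genes so named, 1 is not reported here. Of 55401 deposited identifiers, 54349 matched GENCODE M21 with their version.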

Additional observations from a re-analysis of the deposited data

Results flagged for a closer look

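In 2 of 38 groups of 6 libraries (14 genes and 5 summary measures of the members, each in ablation and control), 1 library stood apart from the others by the 95% limit of Dixon's test, which chance alone exceeds in about 1 in 20 groups. Both were of mt-Atp6. Ablation dish 3 had 14.0 normalized counts, below the other ablation dishes, and control dish 6 had 36.5, above the other controls.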

How the results depend on the processing

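No member was called for treatment in any alternative, among them edgeR on 9 libraries, 3 other scalings and the pair as a replicate block (0 members; 150 genes in all, where the library set gave 0). The block changed no other call. No scaling moved the median of all genes by more than 0.1. Members called with passage, 0 in the fit reported, were 8 with no count minimum for the genes tested, of which 6 were higher, 5 in control dishes only, and 0 to 6 with a pair left out. With culture day they were 0 to 1 with a pair left out. For these alternatives the share of all genes called is not given, so the counts are no result about the members. The difference between mitochondrial and nuclear slopes per passage was 0.11 to 0.28 with a pair left out, and 0.052 without both pair 3 and Ndufa4l2, an alternative also chosen after seeing the data. That between culture days was -0.13 to 0.13, 0.25 without both pair 3 and Ndufa4l2, and 0.093 without a covariate, 0.039 in control and -0.18 in ablation dishes. Values of single genes that turned sign were those of Ndufa4l2 after ablation (0.26 in set 1), Atp5g1 (-0.17 to 0.24 with a pair left out) and Uqcr11 (-0.046 without covariate) by culture day, and with passage Ndufa4l2 (-4.50 to 0.78 with a pair left out, 0.42 without covariate, 0.13 in control dishes), mt-Nd6 (-0.23 to 0.079), mt-Co2 (-0.12 to 0.35), mt-Atp6 (-0.071 to 0.29) and Atp5l (-0.089 to 0.042, and -0.012 in ablation dishes). With library set in place of culture day, chosen after seeing the data, mt-Co3 was 0.14, Ndufb4 -0.031, Uqcrb -0.054, Ndufa4 -0.0099 and Atp5l -0.053. What made these values differ between alternatives was not tested. Depth limits the 4 mitochondrial mRNAs under 100 counts per library, and 6 pairs in 2 library sets limit the comparison of passages.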
